A study of Homo sapiens with 9 samples.

Results

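The genes of the OXPHOS complexes, the 5 inner-membrane complexes of oxidative phosphorylation, were followed after MPZL3 knockdown in OVCAR4 cells. They were the protein-coding rows of the count table whose symbols carry the subunit stems of complexes I to V, which gave 103 of 58735 genes. Of these, 13 were encoded on mitochondrial DNA and 90 in the nucleus. NDUFA4 and NDUFA4L2 were placed with complex IV, to which their proteins belong, although their symbols have the stem of complex I. After a filter on low counts, 93 of the 103 were tested, all 13 mitochondrial genes and 80 nuclear genes.

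Oxidative phosphorylation passes electrons from NADH and succinate through complexes I to IV to oxygen and uses the proton gradient that results to make ATP at complex V, the ATP synthase. Complexes I, III, IV and V each combine subunits made in the mitochondrial matrix from mitochondrial DNA with subunits made in the cytosol from nuclear genes, so that the 2 genomes together supply each enzyme, whereas complex II is wholly nuclear. Mitochondrial DNA is transcribed as long precursors from both strands that are cut into messengers, and nuclear subunit genes are known targets of the transcription factors NRF1 and GABPA and of the coactivator PPARGC1A.

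RNA-seq was carried out on OVCAR4, an established human ovarian serous adenocarcinoma line, with 3 biological replicates in each of 3 groups. The scr control cells, labelled wild type, carried a scramble shRNA, and the MPZL3 knock-down cells carried shMPZL3 #1 or shMPZL3 #2. Lentivirus carried the shRNAs into all groups, and puromycin selection of 3 days followed in each, so every library comes from a selected culture and not from a named clone. The libraries were made from poly-A RNA without strand information and held 15040102 to 27835841 counts. In such bulk libraries, fewer cells that make a transcript and less of it in each cell cannot be told apart.

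MPZL3, an immunoglobulin-domain transmembrane protein and the target of both shRNAs, had 403 to 648 counts in scr control. The range was 130 to 144 counts for shMPZL3 #1 and 281 to 375 for shMPZL3 #2. These are raw counts from libraries of unequal size. Normalized for library size, MPZL3 was at 536 to 611 in scr control, 119 to 143 under shMPZL3 #1 and 271 to 380 under shMPZL3 #2. Of 9 markers of serous carcinoma epithelium, 8 had at least 46 counts in every library, and WT1 had 3 to 13 counts. Markers of other cell types were low. In normalized counts, summed over each list, 5 leukocyte markers reached 41.2 to 51.9 in scr control, 43.0 to 62.6 under shMPZL3 #1 and 57.7 to 96.4 under shMPZL3 #2, with CD3E at 0 to 4 counts and CD68 at 0 to 1. The corresponding sums of 4 endothelial markers were 167.5 to 207.6, 152.0 to 183.4 and 256.6 to 332.1, with KDR at 1 to 4 counts, and those of 5 fibroblast markers were 376.7 to 457.4, 863.3 to 1264 and 689.4 to 772.7, with DCN at 0 in all libraries and PDGFRA at 0 to 2. The fibroblast sum was thus higher in both knockdown groups, with COL1A1, COL1A2 and LUM as its measured members, and the endothelial sum was higher under shMPZL3 #2. Their part in the results below was not tested.

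Messengers of the 2 genomes moved apart. The mitochondrial members took 6.02% ± 0.137 of the counts in scr control, 7.44% ± 0.365 under shMPZL3 #1 and 6.69% ± 0.303 under shMPZL3 #2 (SD, n = 3 each). The nuclear members took 0.980% ± 0.0237, 0.824% ± 0.0657 and 0.875% ± 0.0212 of the counts in the same order. All 6 knockdown libraries were above the 3 scr control libraries in the mitochondrial share and below them in the nuclear share. This holds for the messengers only. The mitochondrial ribosomal RNAs MT-RNR1 and MT-RNR2, which are not members, together took 1.33% ± 0.224, 0.831% ± 0.141 and 0.839% ± 0.0985 of the counts in these poly-A selected libraries, opposite to the messengers. With them added, the mitochondrial share was 7.14% to 7.75% in scr control, 7.70% to 8.61% under shMPZL3 #1 and 7.37% to 7.76% under shMPZL3 #2, and the groups overlapped.

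The ratio of mitochondrial to nuclear counts was 6.13, 6.14 and 6.15 in the scr control libraries. Under shMPZL3 #2 it was 7.90, 7.43 and 7.61, and under shMPZL3 #1 it was 8.59, 9.59 and 8.96. The 3 groups did not overlap, shMPZL3 #2 lying between scr control and shMPZL3 #1. The shift was not equal across complexes. Complex IV subunits from mitochondrial DNA went from 2.96% ± 0.0684 of counts in scr control to 3.90% ± 0.258 under shMPZL3 #1 and 3.43% ± 0.171 under shMPZL3 #2, while the mitochondrial subunits of complex V took 0.583% ± 0.056, 0.589% ± 0.0553 and 0.601% ± 0.00904, with differences smaller than the spread between replicates of scr control. Among nuclear subunits, those of complex V went from 0.382% ± 0.0137 to 0.285% ± 0.0295 and 0.329% ± 0.00890, with no overlap of scr control and either shRNA. No test was made of these sums.

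**Figure D1:**
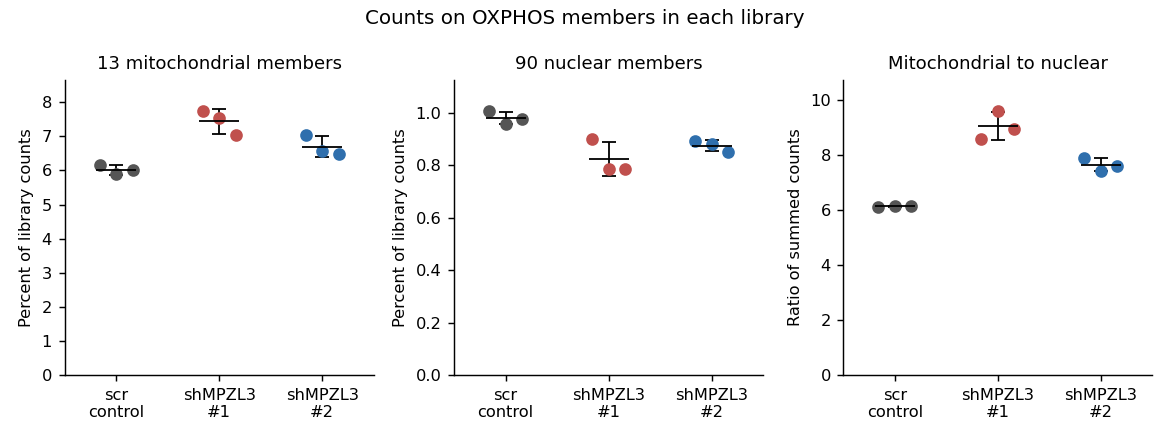
Percent of each library's counts on the 13 mitochondrial members and on the 90 nuclear members, and the ratio of the 2 sums. Each point is a library, and bars give the mean and SD of 3 libraries per group. The ratio rises from 6.13 to 6.15 in scr control to 7.43 to 7.90 under shMPZL3 #2 and 8.59 to 9.59 under shMPZL3 #1.

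Single genes were compared with edgeR's quasi-likelihood test, and a member was called at an adjusted p under 0.05 over all 16928 genes tested. With both shRNAs grouped, 2 mitochondrial members were higher and 0 lower of 13, and 0 nuclear members were higher and 11 lower of 80. In the background of all genes tested, 9.36% were called higher and 6.4% lower, against 15.4% of mitochondrial members higher and 13.8% of nuclear members lower. At an unadjusted p under 0.05, 6 mitochondrial members were higher and 0 lower, and 1 nuclear member was higher and 33 lower, while DESeq2 called 4, 0, 0 and 20 of them in that order. A fit in which each shRNA had its own mean called 6 members higher and 28 lower, against 2 and 11 here. The median log2 fold change was 0.23 for mitochondrial and -0.21 for nuclear members, and 0.02 for all genes. The grouped counts rested on single libraries. For all members they were 2 higher and 11 lower, and they became 0 and 0 without scr control replicate 1, 0 and 1 without scr control replicate 2, 1 and 2 without scr control replicate 3, 1 and 6 without shMPZL3 #1 replicate 1, 1 and 8 without shMPZL3 #1 replicate 3, 2 and 7 without shMPZL3 #2 replicate 1, 3 and 17 without shMPZL3 #2 replicate 2 and 4 and 4 without shMPZL3 #2 replicate 3. Where both counts were 0, 5 mitochondrial members were higher and 19 nuclear members lower at an unadjusted p under 0.05.

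Under shMPZL3 #1 against scr control, 7 mitochondrial members were called higher and 0 lower, and 1 nuclear member higher and 28 lower. At an unadjusted p under 0.05 these counts were 8, 0, 1 and 36, and by DESeq2 8, 0, 1 and 30. The background was 16.8% higher and 15.3% lower, against 53.8% of mitochondrial members higher and 35% of nuclear members lower. The medians were 0.32 for mitochondrial members, -0.22 for nuclear members and 0.01 for all genes. The number of members lower was 15 without scr control replicate 1, 18 without scr control replicate 3 and 17 without shMPZL3 #1 replicate 3.

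Under shMPZL3 #2, 1 mitochondrial member was called higher and 0 lower, and 0 nuclear members higher and 7 lower, against a background of 9.36% higher and 5.8% lower. Those shares, 7.69% of mitochondrial members and 8.75% of nuclear members, were near the background in this fit. The counts depended on the fit, with 3 members higher and 17 lower with a replicate block, 2 and 20 with the block and a correction for gene length, and 3 and 14 in a fit of the compared groups only, against 1 and 7 here. At an unadjusted p under 0.05, 3 mitochondrial members were higher and 0 lower, and 1 nuclear member was higher and 25 lower, and DESeq2 called 1, 0, 0 and 9. The medians were 0.15 for mitochondrial and -0.16 for nuclear members, and 0.00 for all genes. The count of members lower became 2 without scr control replicate 1 or 2 or without shMPZL3 #2 replicate 1 or 3, 3 without scr control replicate 3, and 17 without shMPZL3 #2 replicate 2, and that of members higher became 0 without scr control replicate 2 or shMPZL3 #2 replicate 1 and 2 without shMPZL3 #1 replicate 2 or shMPZL3 #2 replicate 2. The comparisons with each shRNA use the same 3 scr control libraries, so their values are given side by side below and are not independent.

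All 6 knockdown libraries lay above all 3 scr control libraries for 4 mitochondrial and 0 nuclear members, against 11.8% of all genes tested. They lay below for 0 mitochondrial and 23 nuclear members, against 11.1% of all genes.

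MT-CO2, a copper-binding subunit that takes electrons from cytochrome c into complex IV, was the mitochondrial member called with both shRNAs. In normalized counts, scaled to the mean library size, it was at 128809, 127694 and 138561 in scr control, at 195751, 174074 and 165643 under shMPZL3 #1 and at 186483, 166533 and 166495 under shMPZL3 #2. Every knockdown library was above every scr control library, as for 11.8% of all genes tested. The exact permutation p below reflects that separation and was not adjusted over genes. The log2 fold change was 0.44 ± 0.10 (SE) under shMPZL3 #1 (adjusted p = 0.00219) and 0.40 ± 0.10 under shMPZL3 #2 (adjusted p = 0.00966), and 0.42 ± 0.10 with both grouped (adjusted p = 0.0121, exact permutation p = 0.0119, two-sided, the smallest that 6 libraries against 3 can give). The grouped adjusted p was 0.0772 without scr control replicate 1 and 0.0726 without scr control replicate 2, and that under shMPZL3 #2 was 0.0594 without scr control replicate 2 and 0.0714 without shMPZL3 #2 replicate 1.

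The other 2 catalytic-core subunits of complex IV were higher under shMPZL3 #1. MT-CO1, which holds the site of oxygen reduction, rose in normalized counts from 318311 ± 4370 (scr control) to 417597 ± 26111 under shMPZL3 #1 (log2 fold change 0.39 ± 0.09, adjusted p = 0.00277), and stood at 363258 ± 16847 under shMPZL3 #2 (0.19 ± 0.09, adjusted p = 0.158). MT-CO3 went from 159102 ± 6716 to 198525 ± 21183 under shMPZL3 #1 (0.32 ± 0.10, adjusted p = 0.0179) and stood at 176494 ± 7372 under shMPZL3 #2 (0.15 ± 0.10, adjusted p = 0.324). Leaving out scr control replicate 1 or 2 ended the MT-CO3 call under shMPZL3 #1 (adjusted p = 0.054 and 0.0846). For both genes all knockdown libraries were above all scr control libraries.

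Complex I takes 7 core membrane subunits from mitochondrial DNA, which form its proton-pumping arm. Under shMPZL3 #1, 4 of the 7 were higher, namely MT-ND1, MT-ND3, MT-ND5 and MT-ND6. MT-ND1 was at 36876, 38094 and 37895 normalized counts in scr control, 61062, 49389 and 64439 under shMPZL3 #1 and 50508, 37589 and 45276 under shMPZL3 #2. The shMPZL3 #1 libraries were above all scr control libraries, and shMPZL3 #2 replicate 2 fell within them. Its log2 fold change was 0.63 ± 0.12 under shMPZL3 #1 (adjusted p = 0.000683) and 0.24 ± 0.12 under shMPZL3 #2 (adjusted p = 0.183).

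MT-ND3 was the other mitochondrial member called with the shRNAs grouped (0.46 ± 0.14, adjusted p = 0.0407). Its normalized counts were 19643, 18349 and 22082 in scr control, 32941, 24644 and 34021 under shMPZL3 #1 and 25199, 23592 and 24301 under shMPZL3 #2, with no overlap between scr control and knockdown. It rose under shMPZL3 #1 (0.61 ± 0.12, adjusted p = 0.000878), with 0.28 ± 0.12 for shMPZL3 #2 (adjusted p = 0.114). The grouped call ended on leaving out any of the scr control replicates (adjusted p = 0.168, 0.173 and 0.0781 without replicates 1, 2 and 3), without shMPZL3 #1 replicate 1 (0.0726) and without shMPZL3 #1 replicate 3 (0.0547).

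MT-ND5 and MT-ND6 lie next to each other on opposite strands of mitochondrial DNA, MT-ND6 being the only member on the strand marked minus. Reads there cannot be assigned to a strand in these libraries, so the MT-ND6 counts may include transcripts of the opposite strand. MT-ND6 had 18757, 18141 and 17993 normalized counts in scr control, 24772, 25573 and 26098 under shMPZL3 #1 and 20176, 19075 and 16991 under shMPZL3 #2. It was thus higher in each shMPZL3 #1 library than in any other, while the shMPZL3 #2 libraries spanned the scr control values. The log2 fold changes were 0.48 ± 0.09 (adjusted p = 0.000903) and 0.03 ± 0.09 (adjusted p = 0.84). MT-ND5 showed the same order, with 57906 ± 1974 in scr control, 73922 ± 1610 under shMPZL3 #1 (0.35 ± 0.09, adjusted p = 0.00569) and 56117 ± 3124 under shMPZL3 #2 (-0.05 ± 0.09, adjusted p = 0.773).

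The remaining mitochondrial members were not called with either shRNA in the fit reported. MT-ND4 was at 0.11 ± 0.10 and 0.16 ± 0.10 under shMPZL3 #1 and shMPZL3 #2. MT-ND4L, which overlaps MT-ND4 over 7 bases on the same strand, was at 0.21 ± 0.10 (adjusted p = 0.136, and 0.0223 with a correction for gene length) and 0.13 ± 0.10. MT-ND2 was at -0.01 ± 0.09 and -0.08 ± 0.09. MT-CYB, the cytochrome b of complex III and its sole mitochondrial subunit, was at 0.27 ± 0.10 (adjusted p = 0.0557) and 0.20 ± 0.10 (adjusted p = 0.216). Under shMPZL3 #1, MT-CYB was called higher under 8 of the 20 alternative settings, with adjusted p = 0.0401 by DESeq2, 0.0298 with upper-quartile scaling, 0.0315 with protein-coding genes only and 0.0128 with a replicate block. MT-ATP6, the proton-channel subunit of complex V, was at 0.01 ± 0.10 and 0.06 ± 0.10.

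MT-ATP8, a small complex V subunit whose reading frame overlaps that of MT-ATP6 over 46 bases, was the mitochondrial member with the lowest fold change in the grouped comparison. Its normalized counts were 2254, 2081 and 2245 in scr control, 1209, 2451 and 1173 under shMPZL3 #1 and 1248, 2692 and 1226 under shMPZL3 #2. Replicate 2 of each shRNA was above scr control, and the other 4 knockdown libraries were below it. The log2 fold changes were -0.45 ± 0.27 and -0.35 ± 0.27 (adjusted p = 0.227 and 0.42), and without replicate 2 of the respective shRNA the adjusted p was 0.0112 for shMPZL3 #1 and 0.0149 for shMPZL3 #2. With no filter on low counts it was 0.0012 and 0.0282, and with a replicate block 0.00863 and 0.0382, so that these fits call MT-ATP8 lower with both shRNAs. The cause was not tested. Counts in the shared 22.2% of MT-ATP8 cannot be assigned to 1 of the 2 genes.

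**Figure D2:**
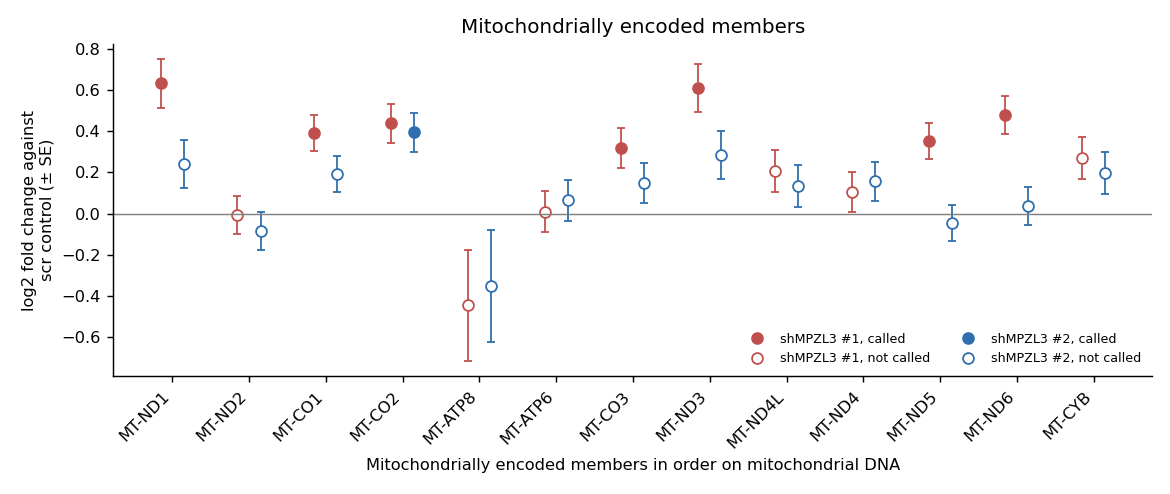
Log2 fold change against scr control of the 13 mitochondrial members in the order of their positions on mitochondrial DNA, with SE bars. Filled points have an adjusted p under 0.05 and open points do not. MT-CO2 is filled for both shRNAs, and MT-ND5 and MT-ND6 are near 0 under shMPZL3 #2 and above 0 under shMPZL3 #1.

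Levels per kilobase of gene length placed the mitochondrial members above the nuclear ones, apart from MT-ATP8, which was below ATP5F1B. In scr control, MT-CO1 had 206428 ± 2834 normalized counts per kilobase, MT-CO3 202937 ± 8567 and MT-CO2 192526 ± 8740, and the SD ranges of neighbours in this order overlapped. MT-ND5 with 31957 ± 1089 and MT-ATP8 with 10596 ± 471 were the lowest of the mitochondrial members. MT-ATP8 shares 22.2% of its length with MT-ATP6, which had 172822 ± 16335. Counts there cannot be assigned to 1 gene, so the level of MT-ATP8 and its place in this order are uncertain. Among nuclear members, ATP5F1B, the catalytic beta subunit of ATP synthase, had the highest value with 12039 ± 251 per kilobase, followed by NDUFS5 with 6240 ± 70.6 and COX8A with 6001 ± 374, the latter pair lying within their spread of each other. The length is that of all annotated exons of a gene, not of 1 messenger, and the order depends on it. It is 548 bases for NDUFS5, with 29631 counts over all libraries, and 10908 for ATP5F1A, with 79997 counts. At the other end, COX4I2 and NDUFC2-KCTD14 had 0 counts in every library, and ATP5MF-PTCD1 had 0 or 1.

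Nuclear members were mostly lower, with 66 of the 80 tested below 0 in the grouped comparison, 69 under shMPZL3 #1 and 64 under shMPZL3 #2. Complex V had the lowest median, -0.30 over 19 tested nuclear members in the grouped comparison, followed by complexes II and IV at -0.24 over 4 and 14 members, complex I at -0.16 over 35 and complex III at -0.10 over 8. The grouped comparison called 5 members lower in complex V, 3 in complex I, 2 in complex IV, 1 in complex II and 0 in complex III. Under shMPZL3 #1 these counts were 10, 11, 4, 2 and 1, and under shMPZL3 #2 they were 3, 0, 3, 1 and 0. As shares, complex V had 26.3%, 52.6% and 15.8% of its tested nuclear members lower in the grouped, shMPZL3 #1 and shMPZL3 #2 comparisons, against 6.4%, 15.3% and 5.8% of all genes. Complex I had 8.57%, 31.4% and 0%, the first near the background, complex IV 14.3%, 28.6% and 21.4%, and complex III 0%, 12.5% and 0%, none above the background. Complex II has only 4 members, with 1, 2 and 1 lower. The differences between complexes were not tested.

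**Figure D3:**
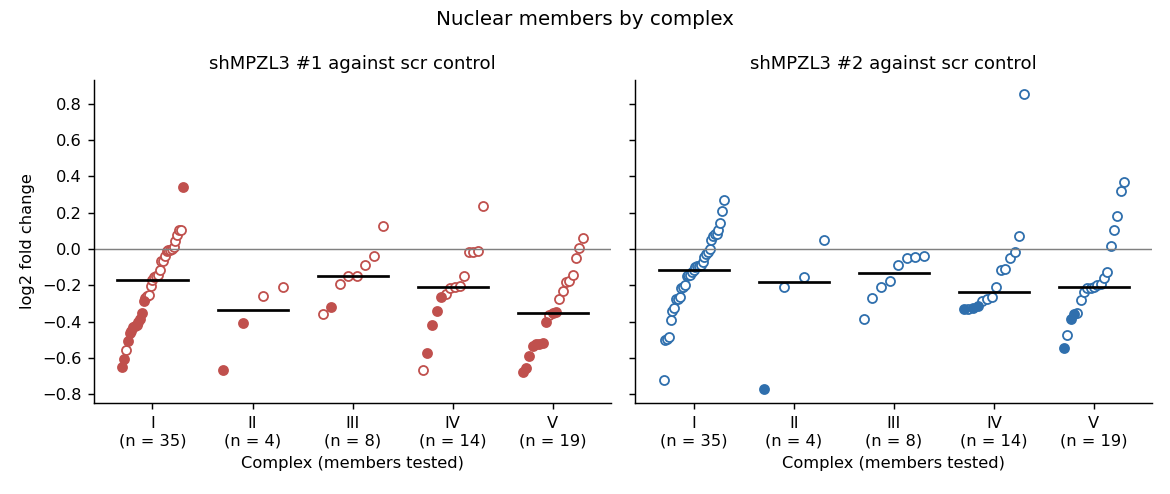
Log2 fold change against scr control of the 80 tested nuclear members, grouped by complex and sorted within it, for each shRNA. Filled points have an adjusted p under 0.05, and the bar is the median of the complex. Most points lie below 0, and more are filled under shMPZL3 #1 (1 above and 28 below 0) than under shMPZL3 #2 (7 below 0).

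SDHD, a membrane anchor of succinate dehydrogenase (complex II) that holds the ubiquinone site with SDHC, had the lowest fold change of all members in the grouped comparison. It lies on the plus strand of chromosome 11 of GRCh38, from 112086773 to 112120013. Its normalized counts were 2134, 1771 and 1737 in scr control, 1187, 1490 and 872 under shMPZL3 #1 and 1075, 1283 and 955 under shMPZL3 #2. All knockdown libraries were below all scr control libraries, as for 11.1% of all genes tested, and replicate 2 was the highest in both knockdown groups. The exact permutation p below reflects that separation and was not adjusted over genes. The log2 fold change was -0.67 ± 0.16 under shMPZL3 #1 (adjusted p = 0.00407), -0.77 ± 0.16 under shMPZL3 #2 (adjusted p = 0.00332) and -0.72 ± 0.15 grouped (adjusted p = 0.00737, exact permutation p = 0.0119). Without scr control replicate 1 the grouped adjusted p was 0.0615. SDHD shares 12.2% of its exon length with TIMM8B on the opposite strand and AP002884.3 on the same strand, and reads there cannot be assigned to 1 gene in these libraries.

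The other complex II genes moved less. SDHB, the iron-sulfur subunit, fell by 0.41 on the log2 scale under shMPZL3 #1 (SE 0.10, adjusted p = 0.00416), with -0.15 ± 0.10 for shMPZL3 #2. SDHA, the flavoprotein subunit, was at -0.26 ± 0.10 (adjusted p = 0.0651) and 0.05 ± 0.10 (adjusted p = 0.802). Pseudogenes named after SDHA held 3269 counts against 8807 on SDHA itself over all libraries, so its level is uncertain. SDHC, the other membrane anchor, was at -0.21 in the grouped comparison (adjusted p = 0.1), with all knockdown libraries below all scr control libraries.

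In complex V, ATP5F1C, the gamma subunit that turns inside the catalytic head, was at 5352, 5097 and 4966 normalized counts in scr control, 3535, 3511 and 2749 under shMPZL3 #1 and 3840, 4302 and 3664 under shMPZL3 #2. No knockdown library reached the lowest scr control library. The log2 fold change was -0.65 ± 0.11 under shMPZL3 #1 (adjusted p = 0.000281) and -0.39 ± 0.11 under shMPZL3 #2 (adjusted p = 0.0236). The call under shMPZL3 #2 ended on leaving out scr control replicate 1 (adjusted p = 0.0852) or 2 (0.0753) or shMPZL3 #2 replicate 1 (0.0717) or 3 (0.143). The grouped call (-0.51 ± 0.12, adjusted p = 0.0129) ended on leaving out scr control replicate 1 (0.0763) or 2 (0.0565).

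ATP5MPL, a small subunit of the membrane sector, had 1807, 1621 and 1775 normalized counts in scr control, 1614, 1318 and 1143 under shMPZL3 #1 and 1233, 1179 and 1148 under shMPZL3 #2. Its shMPZL3 #2 libraries were far below scr control, while shMPZL3 #1 replicate 1, at 1614, lay just below the lowest scr control library, at 1621. The log2 fold changes were -0.35 ± 0.12 (adjusted p = 0.0279) and -0.55 ± 0.12 (adjusted p = 0.00403). The former call ended on leaving out scr control replicate 1 (adjusted p = 0.0917) or 3 (0.079), shMPZL3 #1 replicate 2 (0.0622) or 3 (0.138), or shMPZL3 #2 replicate 3 (0.0515). The grouped call (-0.45 ± 0.11, adjusted p = 0.0213) ended on leaving out scr control replicate 1 (0.11), 2 (0.0563) or 3 (0.0777).

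ATP5PF, a subunit of the peripheral stalk, went from 3303 ± 142 in scr control to 2594 ± 380 under shMPZL3 #1 (-0.35 ± 0.11, adjusted p = 0.0218) and 2581 ± 162 under shMPZL3 #2 (-0.36 ± 0.11, adjusted p = 0.0358). COX7C, a structural subunit of complex IV, went from 4136 ± 220 to 3265 ± 382 (-0.34 ± 0.10, adjusted p = 0.0177) and 3285 ± 204 (-0.33 ± 0.10, adjusted p = 0.0372). For both genes the knockdown and scr control libraries did not overlap. Their calls were near the threshold, with adjusted p up to 0.177 for ATP5PF and 0.18 for COX7C under shMPZL3 #2, both without shMPZL3 #2 replicate 3. For both genes the call under shMPZL3 #1 ended on leaving out scr control replicate 1 or 3 or shMPZL3 #1 replicate 3, and that under shMPZL3 #2 on leaving out any scr control replicate or shMPZL3 #2 replicate 1 or 3. ATP5PF shares 23.1% of its exon length with GABPA and JAM2 on the opposite strand.

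**Figure D4:**
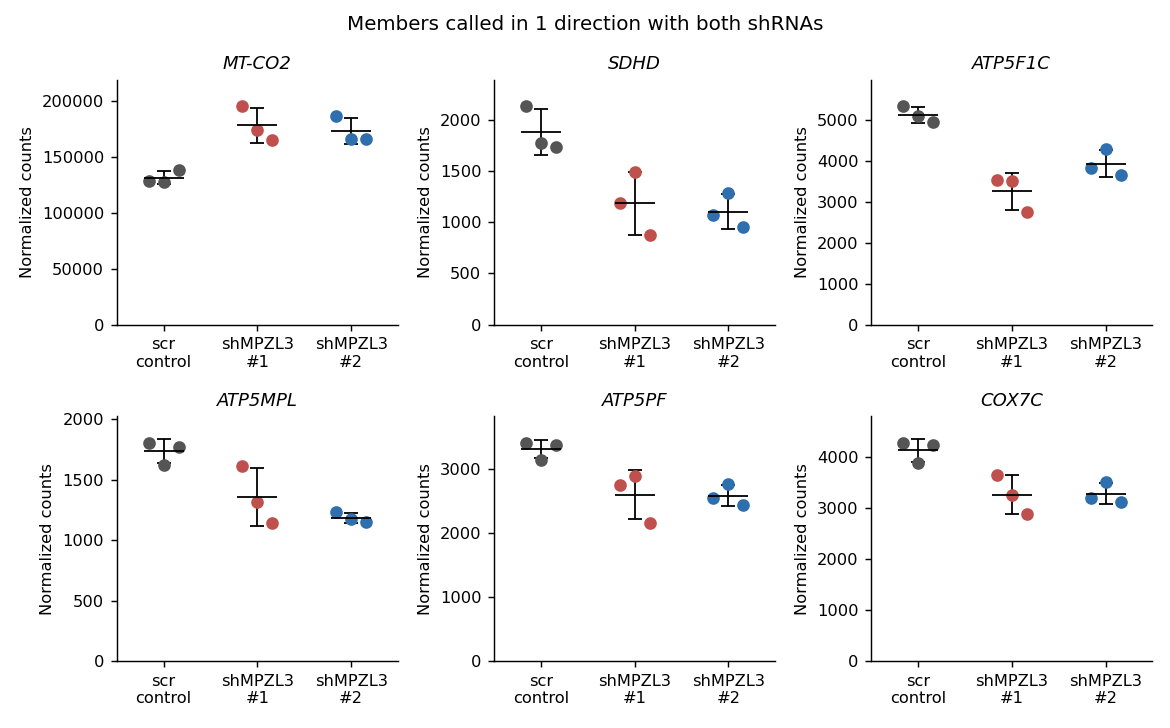
Normalized counts in each library of the 6 members called in 1 direction with both shRNAs, with the mean and SD of 3 libraries per group. MT-CO2 is higher in all 6 knockdown libraries and the 5 nuclear genes are lower in all 6.

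The other nuclear members called in the grouped comparison were 3 accessory subunits of the membrane arm of complex I, NDUFB6 (-0.45 ± 0.12), NDUFB5 (-0.36 ± 0.10) and NDUFB3 (-0.35 ± 0.10), together with ATP5PB of the peripheral stalk (-0.44 ± 0.12), ATP5F1A, the alpha subunit of the catalytic head (-0.38 ± 0.12), and COX6A1 (-0.34 ± 0.10). They were chosen after their values were seen, apart from COX6A1. Under shMPZL3 #1 each of the 6 was called, with log2 fold changes from -0.53 for ATP5F1A to -0.42 for COX6A1. Under shMPZL3 #2 the values ran from -0.39 for NDUFB6 to -0.24 for ATP5F1A, and none of the 6 was called (adjusted p from 0.0527 for ATP5PB to 0.133 for ATP5F1A). COX6C and NDUFA4, both of complex IV, were called under shMPZL3 #2 (-0.32 ± 0.09 and -0.32 ± 0.10) and had -0.20 ± 0.09 and -0.15 ± 0.10 under shMPZL3 #1. COX6C was named after its value was seen. The NDUFA4 call ended on leaving out scr control replicate 1 (adjusted p = 0.118), 2 (0.0631) or 3 (0.14), or shMPZL3 #2 replicate 1 (0.078) or 3 (0.219). The grouped COX6A1 call ended with no filter on low counts (adjusted p = 0.0746) and on leaving out scr control replicate 1 (0.0789), 2 (0.134) or 3 (0.158), shMPZL3 #1 replicate 1 (0.0726), or shMPZL3 #2 replicate 1 (0.0518) or 3 (0.0608).

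In complex I, NDUFC2, an accessory subunit of the membrane arm, had the lowest grouped value, -0.56 ± 0.19 (adjusted p = 0.064), and was called under shMPZL3 #1 (-0.65 ± 0.21, adjusted p = 0.0249). That call ended on leaving out scr control replicate 1 (adjusted p = 0.0892) or 3 (0.0779), or shMPZL3 #1 replicate 1 (0.0529) or 3 (0.125). NDUFV3, an accessory subunit of the NADH-oxidizing module, was the nuclear member called higher. Its normalized counts were 1133, 1137 and 1258 in scr control, 1642, 1242 and 1581 under shMPZL3 #1 and 1466, 1198 and 1406 under shMPZL3 #2, so that replicate 2 of each shRNA overlapped scr control. The log2 fold change was 0.34 ± 0.12 under shMPZL3 #1 (adjusted p = 0.0353) and 0.21 ± 0.12 under shMPZL3 #2 (adjusted p = 0.26). The NDUFV3 call ended with a correction for gene length (adjusted p = 0.0508) and on leaving out scr control replicate 1 (0.127), 2 (0.122) or 3 (0.0557), or shMPZL3 #1 replicate 1 (0.101) or 3 (0.116).

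Complex III gave 1 call, UQCRC2, a core subunit, under shMPZL3 #1 (-0.32 ± 0.11, adjusted p = 0.0308), named after its value was seen. Its extremes in the grouped comparison were UQCR11 at -0.31 ± 0.14 (adjusted p = 0.154) and UQCRQ at -0.04 ± 0.10 (adjusted p = 0.827).

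The c-ring of ATP synthase, the rotor that protons turn, is built of 1 protein that 3 genes encode. Under shMPZL3 #1, ATP5MC1, ATP5MC2 and ATP5MC3 all fell, with log2 fold changes of -0.53 ± 0.13, -0.68 ± 0.12 and -0.40 ± 0.11 (adjusted p = 0.00564, 0.000584 and 0.0104). Under shMPZL3 #2 the values were -0.22 ± 0.13, -0.13 ± 0.12 and -0.20 ± 0.11, and none was called. Leaving out scr control replicate 1 ended the call of ATP5MC3 (adjusted p = 0.0519).

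Tissue-restricted isoforms of complex IV subunits were at or near the floor of detection beside their common isoforms, so that their fold changes carry little weight. COX4I1 had 4529 ± 17.8 normalized counts in scr control against 0 counts for COX4I2 in every library, where a count of 0 allows up to 3. COX6A2 had 0 to 2 counts, COX7B2 0 to 3 and COX8C 0 to 5, while COX6B2 and COX7A1 had 0 to 13 and 0 to 12. COX6A1, COX6B1, COX7A2, COX7B and COX8A, their common counterparts, had means of 969 to 4382 normalized counts in scr control. NDUFA4L2, the isoform of NDUFA4 known to be induced by hypoxia, was low but measured, at 31.2 ± 7.28 in scr control, 36.7 ± 17.4 under shMPZL3 #1 and 56.3 ± 5.69 under shMPZL3 #2. Its log2 fold change was 0.24 ± 0.35 under shMPZL3 #1 and 0.85 ± 0.34 under shMPZL3 #2 (adjusted p = 0.645 and 0.105). Of the members not tested, UQCRHL had 0 to 11 counts beside 94.1 ± 22.2 normalized counts of UQCRH, and ATP5MGL had 0 to 6 beside 1848 ± 212 of ATP5MG. The sources used do not state how reads that match more than 1 gene were counted, so the levels of such pairs are uncertain.

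NDUFV2, a core subunit of complex I, was also not tested, with 4 to 13 counts a library. The table holds 183 counts on its processed copy NDUFV2P1 against 75 on NDUFV2 itself over all libraries, so its level is uncertain. NDUFB2, NDUFB8, NDUFB11, NDUFA1, NDUFA7, NDUFS7, COX8A and ATP5ME, all tested, share 33.5% to 61.6% of their exon length with neighbouring genes, which for COX8A had 0 counts. Of the mitochondrial members, MT-ATP6 and MT-ND2 have nuclear copies that took 4.12% and 4.54% of the counts of gene and copies together. For the nuclear members SDHA and COX6A1, the pseudogenes named after them took 27.1% and 5.42%. ATP5MG lies 148803 bases from MPZL3 on chromosome 11, closest of the 8 members on it, and SDHD lies 6.1067 megabases away. ATP5MG had the lowest grouped log2 fold change in complex V, -0.53 (adjusted p = 0.0589, called under 5 of 20 settings). It was -0.59 under shMPZL3 #1 (adjusted p = 0.025) and -0.47 under shMPZL3 #2 (adjusted p = 0.102). The former call ended without scr control replicate 1 or 3 or shMPZL3 #1 replicate 3.

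Promoter windows were read for the nuclear members called with both shRNAs that held a motif of NRF1 or of the ETS family, to which GABPA belongs. RefSeq promoters on GRCh38.p14, from 250 bases before the start of the gene to 50 after it, matched 68 of the 90 nuclear members. The NRF1 motif, read as GCGCA, then any base, then GCGC on either strand, was in 16 of the 68 windows (23.5%) and in 6.28% of all 27305 promoters, and the ETS motif CCGGAAG, on either strand, was in 19 (27.9%) and in 10.7% of all promoters. The motifs share no letters where both occur in SDHD. The windows of SDHD, at chr11:112086623-112086922 on the plus strand, ATP5F1C, at chr10:7787927-7788226 on the plus strand, and ATP5PF, at chr21:25735005-25735304 on the minus strand, are shown 5′ to 3′ along the gene's strand with the motifs in capitals.
SDHD: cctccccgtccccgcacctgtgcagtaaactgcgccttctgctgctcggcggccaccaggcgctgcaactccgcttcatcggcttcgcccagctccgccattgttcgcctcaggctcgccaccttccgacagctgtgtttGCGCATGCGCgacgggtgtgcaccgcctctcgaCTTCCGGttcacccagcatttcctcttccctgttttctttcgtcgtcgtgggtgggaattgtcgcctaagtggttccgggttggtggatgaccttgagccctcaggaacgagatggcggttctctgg
ATP5F1C: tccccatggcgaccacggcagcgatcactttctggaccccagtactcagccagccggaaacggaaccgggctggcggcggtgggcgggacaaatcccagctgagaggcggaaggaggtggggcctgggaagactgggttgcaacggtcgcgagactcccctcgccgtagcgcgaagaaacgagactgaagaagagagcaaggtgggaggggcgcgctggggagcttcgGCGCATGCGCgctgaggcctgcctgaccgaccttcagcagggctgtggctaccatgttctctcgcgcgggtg
ATP5PF: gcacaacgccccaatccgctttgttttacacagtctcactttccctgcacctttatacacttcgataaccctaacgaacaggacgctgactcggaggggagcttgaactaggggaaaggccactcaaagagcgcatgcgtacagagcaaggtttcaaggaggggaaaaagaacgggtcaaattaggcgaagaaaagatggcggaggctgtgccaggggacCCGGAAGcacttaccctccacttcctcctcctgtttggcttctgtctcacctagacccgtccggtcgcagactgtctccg
The NRF1 motif begins 110 bases before the start in SDHD and 22 bases before it in ATP5F1C, and the ETS motif begins 77 bases before the start in SDHD and 30 in ATP5PF. COX7C held neither motif, and ATP5MPL was not matched. In the grouped comparison, the 15 tested members with the NRF1 motif had a log2 fold change of -0.10 at the median, and the other 47 with a window -0.20. Under shMPZL3 #1 the order was the other way, with -0.26 and -0.25, and under shMPZL3 #2 the medians were -0.09 and -0.15. For the ETS motif the grouped medians were -0.25 over 19 and -0.19 over 43, those under shMPZL3 #1 -0.35 and -0.21, and those under shMPZL3 #2 -0.19 and -0.12. These are descriptions of the letters, without a test.

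The shRNAs were compared directly. Under shMPZL3 #2 against shMPZL3 #1, 7 members were higher, all nuclear, and 3 lower, all mitochondrial, against a background of 7.56% higher and 7.56% lower. The 7 were 8.75% of the nuclear members, near the background, and the 3 were 23.1% of the mitochondrial members. DESeq2 called 10 and 4. The number higher was 4 without scr control replicate 2, 13 without shMPZL3 #1 replicate 1, 2 without shMPZL3 #1 replicate 2, 3 without shMPZL3 #1 replicate 3, 1 without shMPZL3 #2 replicate 1 and 3 without shMPZL3 #2 replicate 3. With upper-quartile scaling, 5 were higher and 4 lower.

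The 3 mitochondrial members were MT-ND6, MT-ND5 and MT-ND1, with log2 differences of -0.44 ± 0.09 (adjusted p = 0.00393), -0.40 ± 0.09 (adjusted p = 0.00575) and -0.39 ± 0.12 (adjusted p = 0.0325). The calls of MT-ND6 and MT-ND5 were kept under all 20 alternative settings. The MT-ND6 counts may include transcripts of the opposite strand, as stated above, so these calls may not be independent of each other. The nuclear members were 5 of complex V, 1 of complex I and 1 of complex IV. ATP5MC2 of the c-ring was at 3175, 2816 and 2718 normalized counts in scr control, 2201, 1535 and 1701 under shMPZL3 #1 and 2901, 2458 and 2623 under shMPZL3 #2, so that shMPZL3 #2 overlapped scr control and shMPZL3 #1 lay below both. Its log2 difference of 0.55 ± 0.12 (adjusted p = 0.00618) was also kept under all 20. ATP5ME, a membrane-sector subunit, had the largest difference, 0.73 ± 0.20 (adjusted p = 0.0182), but shares 61.6% of its exon length with MYL5 on the opposite strand. Its call was lost under 3 of the 20 settings, that of NDUFA11 under 2, COX8A under 4, MT-ND1 under 7, ATP5F1B under 12 and ATP5F1D under 13, with adjusted p up to 0.215.

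**Figure D5:**
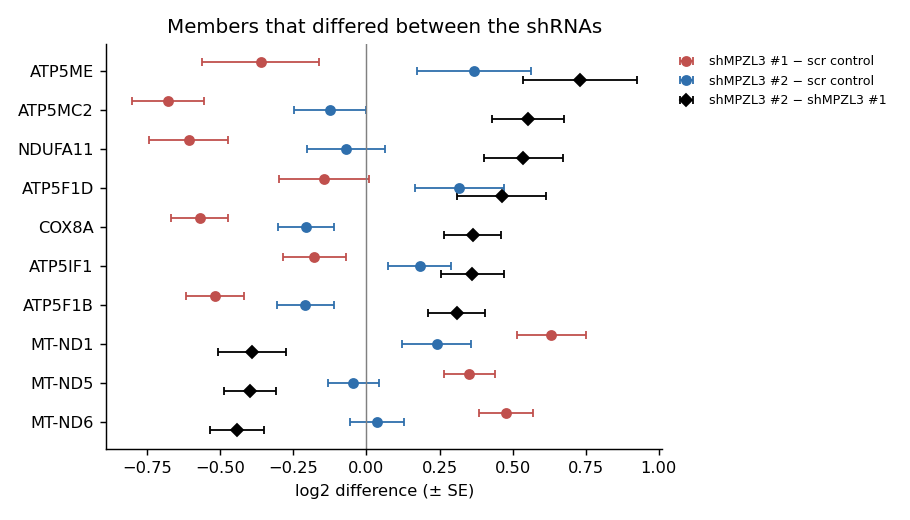
Members with an adjusted p under 0.05 for shMPZL3 #2 against shMPZL3 #1. Points give the log2 fold change of each shRNA against scr control and diamonds the difference between the shRNAs, each with its SE. The 3 mitochondrial genes lie higher under shMPZL3 #1 and the 7 nuclear genes lower under shMPZL3 #1 than under shMPZL3 #2.

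Other genes of the pathway were counted from lists, as called by edgeR. The background of all genes called lower was 6.4% grouped, 15.3% under shMPZL3 #1 and 5.8% under shMPZL3 #2. Of 52 tested assembly factors, which build the complexes but are not in them, 0 were higher and 6 lower in the grouped comparison, 0 and 9 under shMPZL3 #1, and 0 and 4 under shMPZL3 #2. The shares lower were 11.5%, 17.3% and 7.69%, the latter pair near the background. NDUFAF4, a complex I assembly factor, had the largest fall, from 637.7 ± 65.0 in scr control to 344.9 ± 71.7 under shMPZL3 #1 and 490.8 ± 61.9 under shMPZL3 #2 (grouped log2 fold change -0.61 ± 0.18, adjusted p = 0.036). Of 19 electron carriers and accessory subunits outside the symbol rule, 0 were higher and 2 lower grouped, 0 and 6 under shMPZL3 #1, and 0 and 0 under shMPZL3 #2, where edgeR had 0 and 2 at an unadjusted p under 0.05 and DESeq2 called 0 and 1. The shares lower were 10.5%, 31.6% and 0%. PDSS1, which makes the side chain of ubiquinone, had -0.71 ± 0.21 (adjusted p = 0.0363) in the grouped comparison. Of 18 tricarboxylic acid cycle genes, 0 were higher and 2 lower grouped, 2 and 9 under shMPZL3 #1, and 0 and 1 under shMPZL3 #2, with 11.1%, 50% and 5.56% lower. SUCLA2, a subunit of succinyl-CoA synthetase, had -0.74 ± 0.12 (adjusted p = 0.00194).

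The list of 31 tested genes of mitochondrial DNA expression had 1 higher and 5 lower grouped, 1 and 15 under shMPZL3 #1, and 2 and 2 under shMPZL3 #2, with 16.1%, 48.4% and 6.45% lower. HSD17B10, a subunit of the mitochondrial RNase P that cuts the transfer RNAs out of the precursors, rose from 846.7 ± 49.1 in scr control to 2641 ± 310 under shMPZL3 #1 and 2449 ± 296 under shMPZL3 #2 (grouped log2 fold change 1.59 ± 0.12, adjusted p = 2.3e-05). TFAM, which packages mitochondrial DNA and activates its promoters, had the largest fall of the list, from 1896 ± 65.3 to 1244 ± 164 and 1347 ± 285 (-0.55 ± 0.13, adjusted p = 0.0121).

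Of 13 tested regulators, 1 was higher and 2 lower grouped, 1 and 5 under shMPZL3 #1, and 2 and 2 under shMPZL3 #2, with 15.4%, 38.5% and 15.4% lower. PPARGC1A, the coactivator of mitochondrial biogenesis, fell from 418.2 ± 57.6 to 217.8 ± 56.7 under shMPZL3 #1 and 237.3 ± 37.6 under shMPZL3 #2 (-0.88 ± 0.17, adjusted p = 0.00456). EPAS1, the hypoxia-inducible factor HIF-2 alpha, rose from 2080 ± 518 to 3103 ± 61.4 and 3256 ± 79.4 (0.61 ± 0.13, adjusted p = 0.0101). NRF1, GABPA and MYC were named after their values were seen. NRF1 was lower grouped (-0.43 ± 0.11, adjusted p = 0.0229) and with each shRNA (adjusted p = 0.0138 and 0.0412). GABPA was not called grouped (-0.22 ± 0.16, adjusted p = 0.362). MYC was lower under shMPZL3 #1 (-0.42 ± 0.11, adjusted p = 0.00701) and higher under shMPZL3 #2 (0.50 ± 0.11, adjusted p = 0.0041).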

How the data were processed

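The data are RNA-seq counts of 9 OVCAR4 libraries, grouped by their labels. The authors made poly-A selected, non-directional libraries. Per the submitters' processing notes, reads were aligned with HISAT2 2.0.5 to hg38 and counted with featureCounts 1.5.0-p3. The authors deposited raw counts per gene without normalization or pooling. The study's methods state DESeq2 on grouped shRNAs. All 58735 genes and their lengths matched GENCODE 29.

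From the deposited counts, edgeR 4.0.16 (limma 3.58.1, R 4.3.3) tested 16928 genes after filterByExpr with TMM scaling and Benjamini-Hochberg adjustment over all genes. The grouped comparison set 6 libraries against 3, and the others used a fit of 3 groups. Fits were tested on simulated data. SEs are those of the log2 fold change, derived as its absolute value over the square root of the quasi-likelihood F statistic. Exact permutation tests over libraries used log2 CPM with a prior count of 2. Normalized counts are counts scaled by TMM library size to the mean library, and SDs are over the 3 libraries of a group. DESeq2 1.42.0 and the other alternatives are given in the closing section. Figures used Python 3.11.15.

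The members and gene lists were chosen with earlier results of these data known. Named with values were mitochondrial members, members called for both shRNAs, the nuclear extremes of each complex, up to 5 called differences each way between the shRNAs, isoforms and c-ring genes, the 3 highest and lowest nuclear genes per kilobase, MPZL3, and the called gene of each list with the largest change in each direction. Replicates of a group differed beyond counting noise, with a chi-square per gene of 3.03 to 21.2.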

Additional observations from a re-analysis of the deposited data

Results flagged for a closer look

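The effects of the shRNAs differed, by edgeR's test of shMPZL3 #2 against shMPZL3 #1, for 10 members. Of all tested members, 7.53% were higher and 3.23% lower, against 7.56% and 7.56% of all genes tested. The count was thus not above the background. As log2 differences, shMPZL3 #2 minus shMPZL3 #1, MT-ND6 had -0.44 (adjusted p = 0.00393), MT-ND5 -0.40 (adjusted p = 0.00575) and MT-ND1 -0.39 (adjusted p = 0.0325), each being higher under shMPZL3 #1. Higher under shMPZL3 #2 were ATP5ME with 0.73 (adjusted p = 0.0182), ATP5MC2 with 0.55 (adjusted p = 0.00618), NDUFA11 with 0.54 (adjusted p = 0.0127), ATP5F1D with 0.46 (adjusted p = 0.0496), COX8A with 0.36 (adjusted p = 0.018), ATP5IF1 with 0.36 (adjusted p = 0.0308) and ATP5F1B with 0.31 (adjusted p = 0.0437). ATP5IF1, the natural inhibitor of ATP hydrolysis by the synthase, was named after its value was seen. It stood at 2491 ± 222 normalized counts in scr control, 2200 ± 264 under shMPZL3 #1 and 2828 ± 166 under shMPZL3 #2 (SD, n = 3 each), and with either shRNA it was not called against scr control. NDUFA11, an accessory subunit of complex I, was at 499 ± 20.2, 328 ± 30.1 and 476 ± 72.7, and fell under shMPZL3 #1 (-0.61 ± 0.14, adjusted p = 0.0026). The cause of these differences was not tested, and MPZL3 itself was lower under shMPZL3 #1 than under shMPZL3 #2. Groups of 3 libraries are too small for a test of outlying samples.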

How the results depend on the processing

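The medians of the mitochondrial and nuclear members kept their signs in each comparison under all 20 alternatives. The counts of called members were less stable. In the grouped comparison they were 4 higher and 20 lower with DESeq2, 4 higher with protein-coding genes only, and 6 higher and 28 lower when each shRNA had its own mean in a fit of 3 groups. For shMPZL3 #2 they were 11 lower with no filter, and 3 higher and 14 lower in a fit of the compared groups only, in which shMPZL3 #2 against shMPZL3 #1 had 3 higher. The cause was not tested.

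Same-numbered libraries did not deviate together in every pair (correlations from -0.00143 to 0.218), so the replicate numbers were not taken as pairs in the fit reported. Between the shRNA groups, however, same-numbered libraries did deviate together, with correlations of 0.137, 0.218 and 0.097. Differently numbered libraries of these groups had -0.147 to 0.004. Whether a number marks a shared culture or day is not stated in the labels, and the unblocked calls carry this limit. With a replicate block, shMPZL3 #2 had 3 higher and 17 lower and shMPZL3 #2 against shMPZL3 #1 had 14 higher. With the replicate block and a correction for gene length they were 2, 20 and 12, with 5 lower in the last.

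As shares of protein-coding counts, the nuclear members took 1.01% in scr control and 0.896% under shMPZL3 #2, and the mitochondrial members 6.20% in scr control.

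Without each library in turn, the counts of called members ranged from 0 to 4 higher and 0 to 17 lower in the grouped comparison, 6 to 10 and 15 to 31 for shMPZL3 #1, 0 to 2 and 2 to 17 for shMPZL3 #2 and 1 to 13 and 2 to 4 for shMPZL3 #2 against shMPZL3 #1. The medians of mitochondrial and nuclear members were 0.19 to 0.25 and -0.24 to -0.18 for the grouped comparison, 0.28 to 0.34 and -0.26 to -0.19 for shMPZL3 #1, 0.10 to 0.17 and -0.18 to -0.12 for shMPZL3 #2 and -0.19 to -0.076 and 0.04 to 0.15 for shMPZL3 #2 against shMPZL3 #1. The mitochondrial and nuclear shares of counts were 5.95% to 6.08% and 0.968% to 0.991% for scr control, 7.29% to 7.64% and 0.786% to 0.844% for shMPZL3 #1 and 6.52% to 6.80% and 0.867% to 0.887% for shMPZL3 #2.

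Among single named members, 3118 values under the alternatives stayed on their side of the threshold, 120 lost a call and 113 gained a call, and no called value changed sign. The filter on low counts left out 10 of the 103 members, and these were not compared.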

Other observations

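A few members had their highest value of both knockdown groups in replicate 2, a choice made after the values were seen. MT-ATP8 was at 2451 and 2692 normalized counts in replicate 2 of shMPZL3 #1 and shMPZL3 #2, against 1173 to 1248 in the other 4 knockdown libraries. NDUFC2 had 532 and 591 against 281 to 437, and ATP5MG had 1530 and 1672 against 836 to 1321. In scr control, replicate 2 was the lowest of the 3 for each of these genes, with 2081, 507 and 1614.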
